A study of Mus musculus with 6 samples.

Results

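The imprinted growth regulators H19, Igf2, Igf2r, Dlk1, Meg3, Peg3, Mest, Cdkn1c, Grb10 and Plagl1 were read in the kidney and ureter of newborn mice. They are the 10 genes of a fixed list of symbols, each found once among the 24532 genes of the count table. Membership was set by symbol and not by a threshold on a value, although earlier results of these data were known when the list was made. RNA was sequenced from 6 libraries of mice at postnatal day 1 (PN1): 2 of Ahnak knockout (KO) kidney and 2 of wild-type (WT) kidney, with 1 library of ureter from each genotype. The KO mice lack a functional copy of Ahnak, which encodes a very large scaffold protein, in all tissues, and no other allele or treatment was named for any group. Each extraction pooled 2 to 4 kidneys or ureters, so a library is a pool, and the number in each pool, the sex and the litter were not given. The p-values therefore measure the spread between pools only.

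An imprinted gene is transcribed mainly from the copy inherited from 1 parent, because methylation laid down in the germ line silences the other. Many such genes set fetal and perinatal growth: paternally expressed genes tend to promote it and maternally expressed genes to restrain it, and several fall sharply after birth. The kidney and the ureter are both still growing at PN1. From textbook knowledge, the maternal copy of H19, Igf2r, Meg3, Cdkn1c and Grb10 is active in most tissues, and the paternal copy of Igf2, Dlk1, Peg3, Mest and Plagl1. The libraries carry no information on the parental copy, so all values are totals over both copies.

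All 10 genes were placed on mouse build GRCm38 by their NCBI gene numbers in RefSeq, with the strand from GENCODE. H19 (gene 14955) lies on chromosome 7 from 142575530 to 142578146, minus strand, and Igf2 (gene 16002) on the same strand from 142650768 to 142666816. The lower ends of these neighbours are 75.2 kb apart. Cdkn1c (gene 12577) lies farther along chromosome 7, from 143458339 to 143461059 on the minus strand, and Peg3 (gene 18616) on the same chromosome from 6703892 to 6730462, minus strand. Dlk1 (gene 13386) lies on chromosome 12 from 109452485 to 109463336 and Meg3 (gene 17263) from 109540996 to 109571729, both on the plus strand, with their lower ends 88.5 kb apart. Mest (gene 17294) occupies chromosome 6 from 30733506 to 30748466 on the plus strand. Plagl1 (gene 22634) occupies chromosome 10 from 13090832 to 13131694 on the plus strand. Grb10 (gene 14783) occupies chromosome 11 from 11930499 to 12037428 on the minus strand, and Igf2r (gene 16004) chromosome 17 from 12682406 to 12769706 on the minus strand. H19 and Meg3 are long non-coding RNAs, and the other 8 encode proteins.

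H19 and Meg3 each carry a microRNA hairpin inside an exon, and both RNAs were higher in the ureter, so their mature sequences are shown. Capitals mark the seed, bases 2 to 8, which pairs with targets. The sequences are from RefSeq (GRCm38.p6), with miR-675 on chromosome 7, minus strand, and miR-770 on chromosome 12, plus strand.
miR-675-5p: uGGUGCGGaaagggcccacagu
miR-675-3p: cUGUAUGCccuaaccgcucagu
miR-770-5p: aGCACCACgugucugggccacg
miR-770-3p: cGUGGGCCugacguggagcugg
Igf2 and Mest hold the hairpins of miR-483 and miR-335 outside their exons, and the 8 mature RNAs of the 4 hairpins have 8 distinct seeds. The rows of these 4 hairpins held at most 10 counts in any library, and that of Mir1906-1, also within Meg3, held 23 in the WT ureter and at most 2 elsewhere. These libraries were made from polyadenylated RNA, which does not capture mature microRNAs, so the host gene values say nothing of microRNA levels.

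Of the 10 genes, 8 had at least 1 promoter sequence in RefSeq, 15 in all. H19 and Cdkn1c had none. Imprints are kept after fertilization by the zinc finger protein ZFP57, whose core motif is TGCCGC, bound when methylated. The 250 bases upstream of each start in RefSeq, alternative starts inside the gene included, were searched for these letters on both strands. They were present at 4 of the 15 starts, in Mest, Plagl1 and Meg3, and at 8.68% of the 32851 promoters of the reference. The Mest windows from 30737800 and from 30737803 overlap and hold the same motif letters, so these starts are not independent. The windows below are shown because Dlk1 and Meg3 are the neighbours with the largest tissue difference, and because Mest and Plagl1, which hold the letters too, moved in opposite directions between tissues. All are on the plus strand, at chr12:109452573-109452822 for Dlk1, chr12:109540746-109540995 for Meg3, chr6:30737800-30738049 for Mest and chr10:13090582-13090831 for Plagl1, and capitals mark the motif, which reads GCGGCA on this strand. The Dlk1 and Mest windows lie inside the gene bounds given above, before internal starts.
Dlk1: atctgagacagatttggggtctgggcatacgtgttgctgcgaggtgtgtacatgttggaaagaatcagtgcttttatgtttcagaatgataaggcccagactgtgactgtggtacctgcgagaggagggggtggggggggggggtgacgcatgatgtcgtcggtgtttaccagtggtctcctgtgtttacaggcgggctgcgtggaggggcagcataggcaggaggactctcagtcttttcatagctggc
Meg3: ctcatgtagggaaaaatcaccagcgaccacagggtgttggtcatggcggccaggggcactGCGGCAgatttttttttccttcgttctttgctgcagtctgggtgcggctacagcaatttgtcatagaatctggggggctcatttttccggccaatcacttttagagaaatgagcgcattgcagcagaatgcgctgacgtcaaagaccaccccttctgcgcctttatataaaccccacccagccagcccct
Mest: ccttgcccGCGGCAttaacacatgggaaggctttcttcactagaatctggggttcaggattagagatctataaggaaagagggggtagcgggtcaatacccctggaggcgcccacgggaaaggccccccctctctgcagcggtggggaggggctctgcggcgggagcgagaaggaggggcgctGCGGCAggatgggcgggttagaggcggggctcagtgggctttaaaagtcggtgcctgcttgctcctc
Plagl1: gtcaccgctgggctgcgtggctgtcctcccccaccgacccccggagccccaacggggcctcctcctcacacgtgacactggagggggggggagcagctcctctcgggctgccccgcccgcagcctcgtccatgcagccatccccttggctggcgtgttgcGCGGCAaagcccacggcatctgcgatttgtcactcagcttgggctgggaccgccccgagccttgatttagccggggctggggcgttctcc
The Mest window held the motif 2 times, the Meg3 and Plagl1 windows once and the Dlk1 window not at all. The outermost Mest start, at 30733256 to 30733505, had none and 7 CpG dinucleotides, and the second Meg3 start, at 109545148 to 109545397, had neither. In the windows shown, CpG dinucleotides numbered 19 for Plagl1, 14 for Mest, 10 for Meg3 and 8 for Dlk1, against a median of 6 over all promoters. The Meg3 window also held TATAAA near its 3′ end, on both strands in overlapping letters, as did 12.4% of promoters on at least 1 strand. A match in a window is a description and not a binding site.

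Ahnak itself was only a weak check of the genotype labels. It was measured at 139 and 130.4 CPM (counts scaled to a common library total, with TMM factors) in the KO kidneys and at 183 and 189 CPM in the WT kidneys. In the ureters it was at 635 CPM in KO and 727 CPM in WT, so RNA from the locus remained in every KO library. Both KO kidneys lay below both WT kidneys, as they did for 13.5% of all genes tested, and edgeR did not call Ahnak there. These values cannot settle the genotype labels. Library totals ran from 36410246 to 66095616 estimated counts. The KO ureter library stood apart: it had the smallest total, and 8.06% of its counts were in the ribosomal RNA gene Rn45s, against 0.496 to 0.632% in the other libraries. The female-specific RNA Xist had 176348 counts in Ahnak KO kidney 1 and at most 36 elsewhere. Genes of the Y chromosome summed to 0 counts in that library and to 8415 to 18055 in the others. By these RNAs KO kidney 1 was female and the other libraries were male, so sex was not balanced between the kidney genotypes. The ureter libraries were titled as kidney by the submitters, with ureter given as their source, and they were grouped by source. The markers matched the source and not these titles: the 10 urothelial genes summed to 65.8 to 72.1 CPM in the kidneys and to 7315 and 8262 CPM in the ureters. The urothelial genes Upk1b and Upk3a were at 2094 and 1828 CPM on average in the ureters and at 15.2 and 19.6 CPM in the kidneys. Markers of the adrenal medulla summed to at most 17.3 CPM in any library. The 12 adrenal cortex genes summed to 92.6 to 117 CPM, led by Scarb1 and Fdx1, which other cells also express. Of its steroidogenic genes, Cyp11b2 had no count in any library, Cyp11b1 and Cyp21a1 were at or under 0.165 CPM and Star at or under 2.61 CPM. Cyp11a1 (4.81 and 2.99 CPM) and the receptor accessory gene Mrap (4.67 and 0.913 CPM) were higher in the KO and WT ureters than in any kidney, where they were at or under 0.558 CPM. Akr1b7 went the other way, at 16.2 to 23.2 CPM in the kidneys and 1.75 and 2.33 CPM in the KO and WT ureters. So did Nr5a1 and Hsd3b1, at 0 counts in the ureters. Of the 9 adrenal cortex genes tested between tissues by edgeR, 3 were called higher in the ureter, 3 were called lower and 3 were not called.

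Between genes, levels are compared in TPM, a share of all transcripts that accounts for gene length. In the 4 kidney libraries H19 led with 1858 ± 177 TPM (SD, n = 4) and ranked between the 72nd and the 89th of all genes. Mest followed with 1074 ± 40.3 TPM, then Cdkn1c with 617 ± 102 TPM. Igf2 with 341 ± 51.7 TPM and Grb10 with 296 ± 41.0 TPM did not differ beyond their spread, although Igf2 was the higher in each library by 1.07 to 1.21 times. Plagl1 with 114 ± 11.6 TPM, Peg3 with 107 ± 9.30 TPM and Meg3 with 92.4 ± 10.2 TPM overlapped with their neighbours in the order. Igf2r had 37.4 ± 4.0 TPM and Dlk1 came last with 5.65 ± 1.43 TPM.

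In the ureters the order was different. H19 again led, with 3748 TPM in KO and 4172 TPM in WT. Igf2 and Mest came next and changed places between the libraries: Igf2 had 820 TPM in KO and 533 TPM in WT, and Mest 498 and 617 TPM. Cdkn1c had 425 TPM in KO and 474 TPM in WT. Meg3 had 238 TPM in KO and 494 TPM in WT, so it lay below Cdkn1c in 1 library and above it in the other. Dlk1 rose from last place to 116 and 139 TPM, above Peg3 with 75.0 and 65.0 TPM and Igf2r with 70.9 and 67.4 TPM. Together the 10 genes took 0.409 to 0.495% of all TPM in the kidneys and 0.632 and 0.692% in the ureters. H19 alone made up 40.2 to 41.4% of their sum in the kidneys and 59.5 and 60.5% in the ureters.

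**Figure D1:**
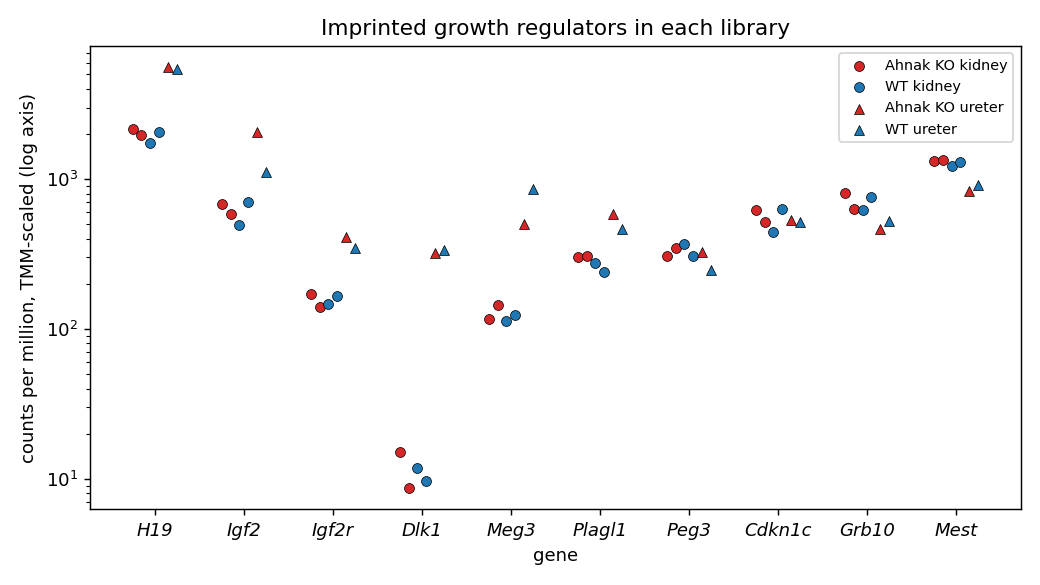
Level of each gene in each library, in TMM-scaled CPM on a log axis; circles are kidney and triangles ureter libraries, red Ahnak KO and blue WT. Dlk1 sits between 8.65 and 15.1 CPM in the kidneys and at 323 and 336 CPM in the ureters, while Cdkn1c and Peg3 overlap between tissues.

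The comparison of tissues asked which of the genes differed between ureter and kidney at the same age. Of the 10 genes, 6 were higher in the ureter (Dlk1, Meg3, H19, Igf2, Igf2r and Plagl1), 2 were lower (Mest and Grb10), and Peg3 and Cdkn1c did not pass the test. Over all genes 21.4% were called higher and 23.7% lower (edgeR quasi-likelihood test, adjusted p under 0.05, 16873 genes tested). The median log2 fold change of the 10 genes was 1.09, against -0.08 over all genes. By parental copy the counts were the same: 3 higher, 1 lower and 1 not called among the 5 maternally expressed genes and among the 5 paternally expressed genes. In bulk tissue, fewer cells of a type and less RNA per cell cannot be told apart.

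The growth factor gene Igf2 and its non-coding neighbour H19 share enhancers on chromosome 7. In CPM, H19 was at 2167 and 1979 in the KO kidneys, 1741 and 2079.9 in the WT kidneys, 5607 in the KO ureter and 5466 in the WT ureter. Both ureters were above all 4 kidneys and within 1.03 times of each other. Its log2 fold change, ureter over kidney, was 1.48 ± 0.09 (approximate SE; edgeR adjusted p = 6.9e-05). Igf2 was at 682 and 585 CPM in the KO kidneys, 494 and 707 CPM in the WT kidneys, 2059 CPM in the KO ureter and 1114 CPM in the WT ureter. Both ureters exceeded every kidney, but they were far apart, and the log2 fold change was 1.31 ± 0.22 (edgeR adjusted p = 0.0039). Within a library the TPM ratio of H19 to Igf2 was 5.0 to 5.78 in the kidneys, 4.57 in the KO ureter and 7.83 in the WT ureter. The 2 ureters thus lay on either side of the kidney range.

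Igf2r encodes the receptor that takes up IGF2 protein for degradation. Its CPM were 171 and 141 in the KO kidneys, 147 and 166 in the WT kidneys, 414 in the KO ureter and 345 in the WT ureter, with a log2 fold change of 1.28 ± 0.12 (edgeR adjusted p = 4.6e-04). The ligand and its receptor were thus both higher in the ureter, and the TPM ratio of Igf2 to Igf2r was 8.0 to 9.75 in the kidneys, 11.6 in the KO ureter and 7.90 in the WT ureter. Igf2r overlaps the antisense RNA Airn, which had 581 to 727 counts in the kidneys and 687 and 1138 in the ureters. Igf2r had 8369 counts or more in every library, and whether strand was used in the counting is not given in the sources used here.

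Dlk1, a membrane protein related to Notch ligands that marks progenitor cells, had the largest difference of the 10. Its CPM were 15.1 and 8.65 in the KO kidneys, 11.8 and 9.73 in the WT kidneys, 323 in the KO ureter and 336 in the WT ureter, 29.1-fold by the fit. The log2 fold change was 4.86 ± 0.22 (edgeR adjusted p = 2.8e-05). Its neighbour Meg3 was at 117 and 145 CPM in the KO kidneys, 113 and 125 CPM in the WT kidneys, 505 CPM in the KO ureter and 855 CPM in the WT ureter. Both ureters were above every kidney, with a log2 fold change of 2.42 ± 0.21 (edgeR adjusted p = 2.6e-04). The TPM ratio of Meg3 to Dlk1 was 11.4 to 25.8 in the kidneys, 2.05 in the KO ureter and 3.56 in the WT ureter.

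The transcription factor gene Plagl1, a zinc finger regulator of an imprinted gene network, was at 303 and 308 CPM in the KO kidneys, 277 and 239.8 CPM in the WT kidneys, 587 CPM in the KO ureter and 467 CPM in the WT ureter. Its log2 fold change was 0.90 ± 0.10 (edgeR adjusted p = 7.0e-04), and the tissues did not overlap. Peg3, another zinc finger gene, was at 307 and 346 CPM in the KO kidneys, 368 and 309 CPM in the WT kidneys, 325 CPM in the KO ureter and 247 CPM in the WT ureter. The KO ureter lay inside the kidney range, and the log2 fold change of -0.23 ± 0.14 did not pass (edgeR adjusted p = 0.25). On deposited FPKM, where every one of the 10 genes shifted down, by 0.27 to 0.69 on the log2 scale, Peg3 passed (limma, log2 fold change -0.51, adjusted p = 0.012). No gene of the 10 changed direction there, but the split over all genes became 2528 higher and 6360 lower, against 3603 and 3992 on TMM-scaled counts.

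Mest, an enzyme of the hydrolase family expressed in growing mesoderm, went the other way. It was at 1332 and 1351 CPM in the KO kidneys, 1221 and 1309 CPM in the WT kidneys, 836 CPM in the KO ureter and 907 CPM in the WT ureter. All kidneys were above both ureters (log2 fold change -0.58 ± 0.09, edgeR adjusted p = 0.0028). Its 3′ neighbour Copg2 lies on the opposite strand, overlaps it and had 3304 to 6560 counts. Grb10, an adaptor that dampens insulin and IGF receptor signalling, was at 803 and 632 CPM in the KO kidneys, 627 and 762 CPM in the WT kidneys, 462 CPM in the KO ureter and 526 CPM in the WT ureter. Its log2 fold change was -0.52 ± 0.14 (edgeR adjusted p = 0.028). The Grb10 call was lost without the KO ureter (edgeR adjusted p = 0.16), without WT kidney 2 (edgeR adjusted p = 0.088), with WT libraries only (edgeR adjusted p = 0.056) and with KO libraries only (edgeR adjusted p = 0.062), where the lone ureter is assumed to vary like the kidneys. Cdkn1c, which encodes the cell cycle inhibitor p57, was at 624 and 518 CPM in the KO kidneys, 446 and 628 CPM in the WT kidneys, 533 CPM in the KO ureter and 521 CPM in the WT ureter. Both ureters lay inside the kidney range (log2 fold change -0.07 ± 0.16, edgeR adjusted p = 0.74).

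**Figure D2:**
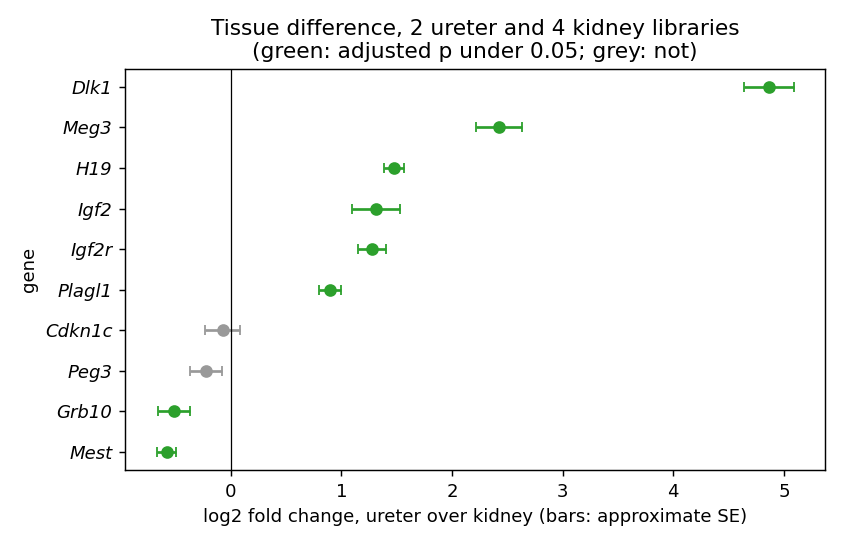
Log2 fold change of each gene, ureter over kidney, from the fit on 2 ureter and 4 kidney libraries; bars are the approximate SE, green points passed at an adjusted p under 0.05 and grey points did not. Dlk1 lies at 4.86 and Mest at -0.58, and the bar of Cdkn1c crosses 0.

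Cell type markers also differed between the tissues. The 8 stromal markers, led by Col3a1 and Col1a1, summed to 3088 to 3712 CPM in the kidneys and to 15526 and 17994 CPM in the ureters, mostly in collagen genes. Of the 8, 5 were higher in the ureter, Pdgfrb was lower (log2 fold change -0.83, edgeR adjusted p = 0.0033), and Tcf21 (-0.05) and Foxd1 (0.18) did not pass. The 10 smooth muscle markers, led by Acta2 and Myh11, summed to 603 to 706 CPM in the kidneys and to 7181 and 7959 CPM in the ureters, and all 10 were higher. The 9 nephron progenitor markers, led by Sall1 and Six2, summed to 616 to 660 CPM in the kidneys and to 104 and 119 CPM in the ureters. Of the 9, 8 were lower in the ureter, with Sall1 and Six2 at no more than 1.24 CPM, and Osr1 was higher (69.6 and 87.0 CPM, log2 fold change 2.24). The 9 proximal tubule genes, led by Lrp2 and Aqp1, summed to 974 to 1359 CPM in the kidneys and to 234 and 339 CPM in the ureters. Of the 9, 7 were lower in the ureter, with Lrp2 at 0.269 and 0.602 CPM and Slc34a1, Slc22a6 and Slc5a2 at 0 counts, while Aqp1, which held most of the ureter sum, was higher (318 and 221 CPM, log2 fold change 0.76). The 9 podocyte genes, led by Cd2ap and Podxl, summed to 1016 to 1174 CPM in the kidneys and to 432 and 434 CPM in the ureters, where 7 were lower, Cd2ap was higher and Synpo did not pass. The 14 striated muscle genes, led by Ckm and Acta1, summed to 15.7 to 19.8 CPM in the kidneys and to 143 and 251 CPM in the ureters. The part of these cells in the tissue differences was not tested.

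On chromosome 12 several genes around Dlk1 and Meg3 were higher in the ureter too. Of the 6 tested genes within 500 kb of Meg3, 5 were higher in the ureter and 0 were lower. The other, 6430411K18Rik, did not pass (2.54, edgeR adjusted p = 0.11), and the median log2 fold change was 2.98. Within 500 kb of Dlk1, 5 of 7 were higher and 0 were lower, with Begain at -0.72 (edgeR adjusted p = 0.052). The 5 around Meg3 include Dlk1 and Rtl1, a retrotransposon-derived gene that overlaps Meg3 on the opposite strand. The log2 fold change of Rtl1 was 3.0 (edgeR adjusted p = 0.049) at no more than 2.14 CPM. Since the strand setting of the counting is not given, its counts cannot be told apart from Meg3 reads. The non-coding RNA Rian was at 55.4 to 75.4 CPM in the kidneys, 467 CPM in the KO ureter and 623 CPM in the WT ureter (log2 fold change 2.97 ± 0.18, edgeR adjusted p = 6.5e-05). Mirg, at the far end of the cluster, was at 0.942 to 2.66 CPM in the kidneys and 16.4 and 15.3 CPM in the ureters, a log2 fold change of 3.04 ± 0.39 (edgeR adjusted p = 0.0014). On chromosome 7, of the 18 tested genes within 500 kb of H19, 7 were higher and 0 were lower, with a median of 0.94, but these include genes of striated muscle. For Mest, 7 of 13 neighbours were lower, 1 was higher and the median was -0.71. Cdkn1c had 6 of 20 neighbours higher and 2 lower, with a median of 0.29. Igf2 had 6 of 18 higher and 1 lower (0.70), and Plagl1 4 of 9 higher and 0 lower (0.32). Igf2r, itself higher, had 3 of 16 neighbours higher and 5 lower (-0.29), Peg3 had 1 of 11 higher and 1 lower (-0.26), and Grb10 had 1 of 5 higher and 0 lower (-0.26). The background shares of 21.4% higher and 23.7% lower apply to these counts.

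**Figure D3:**
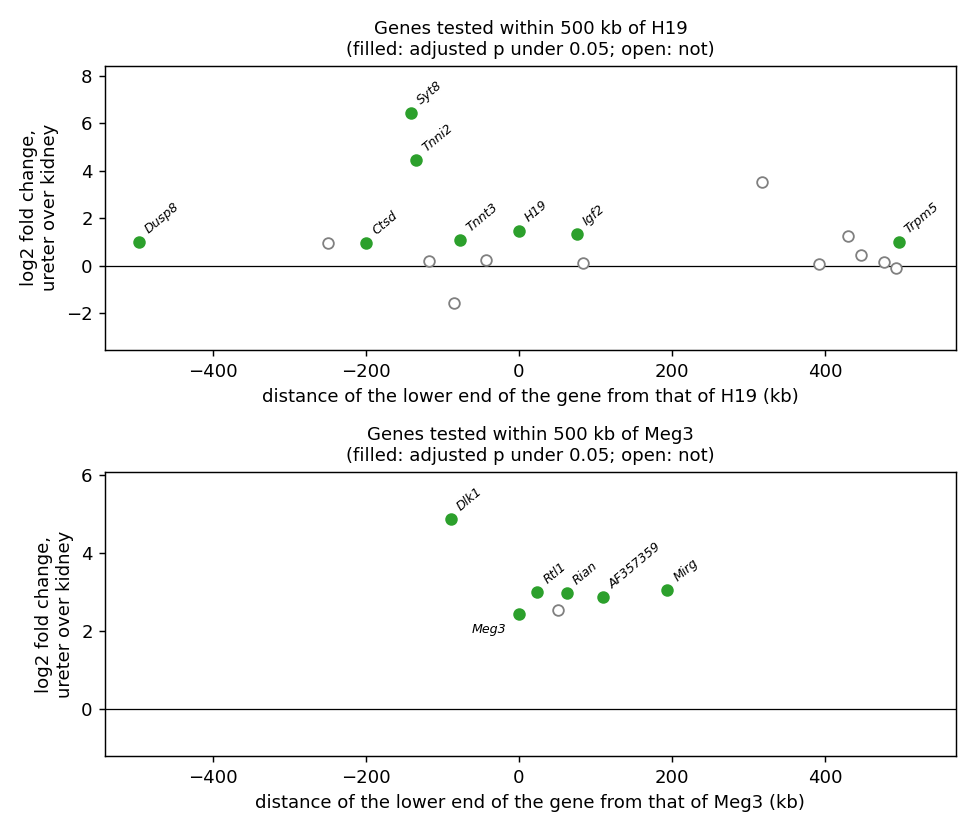
Log2 fold change, ureter over kidney, of the genes tested within 500 kb of H19 (top) and of Meg3 (bottom), by the distance in kb between the lower ends of the genes; filled points passed at an adjusted p under 0.05 and open points did not. Around Meg3, 5 of 6 neighbours are filled and lie above 0, with Dlk1 at 4.86; around H19, 7 of 18 neighbours are filled.

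Other imprinted genes did not move one way between tissues. Of 53 with a row, 51 were tested, 18 were higher in the ureter, 11 were lower and 22 did not pass, with a median log2 fold change of 0.28. Among the 26 tested that are listed with an active maternal copy, 9 were higher and 6 lower. Of the 25 listed with an active paternal copy, 9 were higher and 5 lower. Here and below the copy named is that of the lists, which may hold in other tissues only. Which copy was active in kidney or ureter was not measured. At a mean of at least 1 CPM, the largest increases with an active maternal copy were in Dcn, a matrix proteoglycan gene (57.9 to 114 CPM in the kidneys, 2313 and 3609 CPM in the ureters, log2 fold change 5.11 ± 0.28), the organic cation transporter gene Slc22a3 (3.59 ± 0.23) and Mirg. The lowest was the related transporter gene Slc22a2, at 25.7 ± 5.38 CPM (SD, n = 4) in the kidneys and at 0 counts in both ureters. A count of 0 allows up to 3 counts per library, so it was at least 255-fold lower there. The channel gene Kcnq1 (-4.01 ± 1.05) and the placental growth regulator Phlda2 (-2.03 ± 0.43) came next. With an active paternal copy and a mean of at least 1 CPM, Snurf (3.44 ± 0.29), which shares its transcript with Snrpn, Magel2 (2.86 ± 0.73) and Airn (1.12 ± 0.15) were the largest. Nnat (-1.43 ± 0.18), Peg12 (-1.19 ± 0.20) and Zdbf2 (-1.10 ± 0.37) were the smallest. Snrpn did not pass (0.58 ± 0.31, edgeR adjusted p = 0.18). How reads of the shared transcript were divided between Snurf and Snrpn is not given, so the Snurf value may not hold for that transcript.

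Igf2 acts through the IGF axis of receptors, binding proteins and proteases. Of its 20 tested genes, 4 were higher in the ureter, 9 were lower and 7 did not pass, with a median log2 fold change of -0.13. Igf1, the other ligand, was at 34.3 to 56.7 CPM in the kidneys and at 486 and 385 CPM in the ureters, a log2 fold change of 3.18 ± 0.20. The RNA-binding protein gene Igf2bp3, which binds Igf2 transcripts, rose by 1.17 ± 0.17 on the log2 scale and the adaptor gene Irs2 by 0.79 ± 0.18. Pappa2, a protease that frees IGF from binding proteins, fell by 2.50 ± 0.17 on the log2 scale, from 28.4 to 37.8 CPM in the kidneys to 6.05 and 5.65 CPM in the ureters, and the protease inhibitor gene Stc2 fell by 2.79 ± 0.78. Igfals, a carrier of circulating IGF, was at 1.75 ± 0.35 CPM (SD, n = 4) in the kidneys and at 0 counts in both ureters, at least 17.4-fold lower. Medians were the same with Slc22a2 and Igfals set at these bounds.

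Genes of DNA methylation and imprint control, below called the imprint maintenance list, were mostly lower in the ureter. The list joins genes that set or remove methylation, such as Dnmt3l and Tet3, with genes that keep it. Of 16 tested, 11 were lower, 1 was higher and 4 did not pass, with a median log2 fold change of -0.45. Over all genes 23.7% were lower and 21.4% higher. The methyltransferase gene Dnmt3b fell by 1.41 ± 0.16 on the log2 scale and Uhrf1, which guides maintenance methylation, by 1.07 ± 0.18. Zfp57, the factor whose motif is described above, fell by 0.82 ± 0.26 (edgeR adjusted p = 0.045), from 58.1 to 72.3 CPM in the kidneys to 24.7 and 52.9 CPM in the ureters. The exception was Dnmt3l, a methyltransferase cofactor of germ cells, at no more than 0.379 CPM in the kidneys and 8.41 and 12.7 CPM in the ureters. Tet3 (0.29 ± 0.13, edgeR adjusted p = 0.11) and Arid4a (0.11 ± 0.16, edgeR adjusted p = 0.62) were the next highest values and did not pass.

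**Figure D4:**
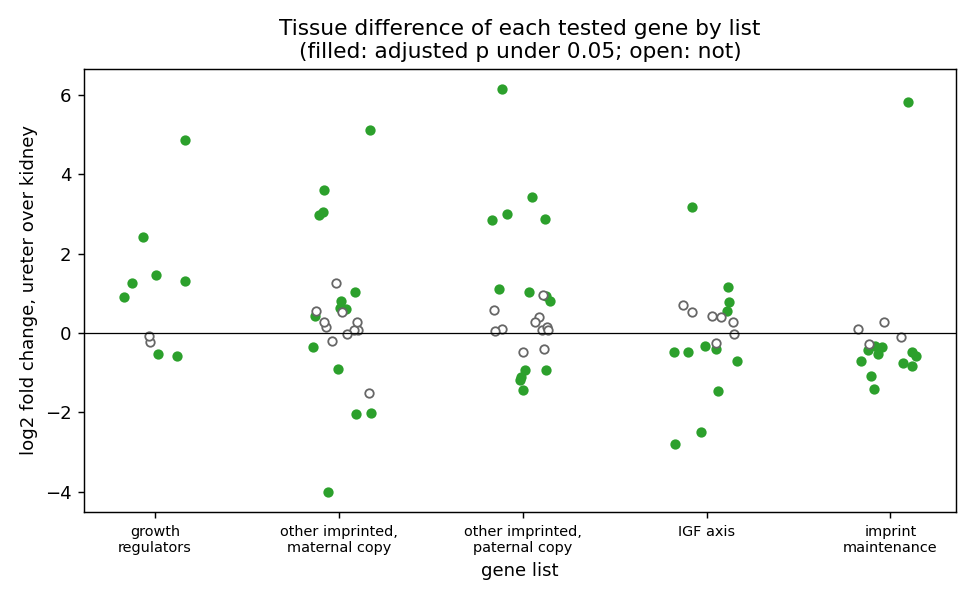
Log2 fold change, ureter over kidney, of each tested gene in the 10 growth regulators and in 4 lists of related genes; filled points passed at an adjusted p under 0.05, open points did not, and horizontal scatter within a list has no meaning. Slc22a2 and Igfals, at 0 counts in both ureters, are left out; of the 51 other imprinted genes tested, 18 passed above 0 and 11 below.

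By pattern over the 6 libraries, the genes most like each of the 10 were found among 11142 genes by the mean absolute difference of log2 profiles, each centred on its own mean. H19 was closest to Tspan13 (0.036), Rabgap1l and Hsdl2. Igf2r was closest to Ssh2 (0.036), Ston2 and Lpp, and Plagl1 to Ggh (0.039), Fam234a and Slc35d2. Among the genes with small tissue differences, Mest was closest to Poll (0.028), Twnk and Agps, Grb10 to 1110051M20Rik (0.030), Arhgap29 and Acat2, Peg3 to Riok1 (0.030), Ltv1 and Nom1, and Cdkn1c to Mplkip (0.046), Invs and Wdyhv1. The remaining profiles had no such close match: Meg3 was closest to Ckb (0.076), Dmpk and Tnnt1, Igf2 to Gsdmc2 (0.11) and Tmod2, and Dlk1 to Bace2 (0.12), Sytl1 and Adtrp. In none of the 10 was another member among the 3 closest genes. With 6 libraries of which 2 are ureters, the tissue difference weighs most in this measure.

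The comparison of genotypes in the kidney asked whether loss of Ahnak changed the genes. None of the 10 passed: edgeR called 0, DESeq2 called 0 and limma on FPKM called 0, and 0 had an unadjusted p under 0.05. Over all 16481 genes tested 2 were called (0.0121%), Gvin1 and Rnf8-cmtr1, both lower in KO, and 227 had an unadjusted p under 0.05. The log2 fold changes, KO over WT, ran from -0.05 to 0.25, with approximate SEs of 0.09 to 0.29, 8 of 10 were above 0, and the median was 0.09 against -0.004 over all genes.

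Both KO kidneys were above both WT kidneys for Plagl1 and Mest, 2 of the 10 genes, against 12.8% of all genes tested. None was below, against 13.5%. Plagl1 was 306 ± 3.61 CPM in KO and 258 ± 26.2 CPM in WT (SD, n = 2 each), a log2 fold change of 0.25 ± 0.11 with an unadjusted p of 0.071 and an adjusted p of 0.9999 by edgeR. Mest was 1342 ± 13.7 CPM in KO and 1265 ± 62.6 CPM in WT, a log2 fold change of 0.09 ± 0.09. The other 8 overlapped. H19 was 2073 ± 133 CPM in KO and 1910.2 ± 240.0 CPM in WT (log2 fold change 0.12 ± 0.11), and Igf2 was 634 ± 68.4 and 601 ± 150.4 CPM (0.08 ± 0.18). Meg3 (0.14 ± 0.14), Dlk1 (0.14 ± 0.29), Cdkn1c (0.09 ± 0.18), Grb10 (0.05 ± 0.15), Igf2r (-0.004 ± 0.13) and Peg3 (-0.05 ± 0.13) had SEs close to their values or larger.

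The kidney libraries differed more by library than by genotype for several genes. Igf2, Cdkn1c, Grb10, H19 and Igf2r were each higher in KO kidney 1 and WT kidney 2 than in KO kidney 2 and WT kidney 1. Their highest over lowest ratios among the 4 kidneys were 1.43, 1.41, 1.28, 1.25 and 1.21. This split of the libraries was chosen after the values were seen, and the share of all genes that show it was not computed. It is therefore not read as particular to these genes. KO kidney 1 and WT kidney 2 also had the higher sums of the proximal tubule genes, at 1359 and 1311 CPM against 981 and 974 CPM in KO kidney 2 and WT kidney 1. Lrp2, the endocytic receptor of the proximal tubule, was at 476 and 477 CPM against 295 and 297 CPM. Aqp1 went the other way, at 159 and 132 CPM against 166 and 172 CPM. Hnf4a and Ass1 overlapped between these pairs of libraries, and the remaining genes of the list went with Lrp2. The part of proximal tubule content in the kidney values was not tested. The direction of Igf2, Cdkn1c and Grb10 turned when KO kidney 1 was left out (-0.03, -0.05 and -0.13) and when WT kidney 1 was left out (-0.16, -0.14 and -0.09).

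In the same kidney fit 0 of the 50 other imprinted genes tested, 0 of 20 IGF axis genes and 0 of 16 imprint maintenance genes passed by edgeR, and 0 of them had an unadjusted p under 0.05. Among genes with a mean of at least 1 CPM, the largest values were 0.53 ± 0.95 for Magel2, 0.45 ± 0.72 for Nap1l5 and 0.32 ± 0.39 for Nespas among paternally expressed genes, and 0.22 ± 0.18 for Kcnq1, 0.18 ± 0.17 for Rian and 0.17 ± 0.34 for Klf14 among maternally expressed genes. The smallest were -0.34 ± 0.36 for Snrpn, -0.30 ± 0.47 for Snurf and -0.22 ± 0.28 for Sfmbt2, and -0.33 ± 0.23 for Atp10a, -0.31 ± 0.25 for Ube3a and -0.18 ± 0.55 for Mirg. In the IGF axis, the binding protein genes Igfbp4 (0.28 ± 0.15), Igfbp1 (0.25 ± 0.41) and Igfbp6 (0.20 ± 0.40) had the largest values. Pappa2 (-0.30 ± 0.13), Igf2bp2 (-0.24 ± 0.15) and Igfbp7 (-0.11 ± 0.10) had the smallest. Among imprint maintenance genes the values ran from -1.15 ± 1.49 for Dnmt3l, which is near 0 CPM in the kidney, through -0.22 ± 0.18 for Uhrf1 and -0.20 ± 0.16 for Arid4a, to 0.004 ± 0.11 for Arid4b, 0.02 ± 0.15 for Zfp57 and 0.09 ± 0.11 for Smchd1.

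In the ureter the genotypes were compared between 1 library each, so there is no replicate check and no test. None of the 10 genes differed by over 2-fold, while 4.5% of the 16117 genes compared were over 2-fold higher in KO and 5.75% over 2-fold lower. The largest differences were in Igf2, 1.85 times higher in the KO library (log2 ratio 0.89; 2059 against 1114 CPM), and in Meg3, 1.69 times lower (log2 ratio -0.76; 505 against 855 CPM). These were read from 61224 and 57347 counts for Igf2 and from 15030 and 44027 counts for Meg3. Peg3 (0.40), Plagl1 (0.33) and Igf2r (0.27) were higher in the KO library. H19 (0.04), Cdkn1c (0.04) and Dlk1 (-0.05) were within 1.04 times of equal, Mest was at -0.12 and Grb10 at -0.19. The median over the 10 genes was 0.04, against -0.02 over all genes.

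The small ureter values moved with the scaling. With library size alone each log2 ratio fell by about 0.20, H19 and Cdkn1c turned to -0.16 each, and the genes past 2-fold were 543 higher and 1310 lower, against 725 and 926 with TMM. On FPKM, Meg3 went past 2-fold lower (log2 ratio -1.06) and Igf2 was at 0.60. Urothelial and smooth muscle markers summed to 8262 and 7181 CPM in KO and to 7315 and 7959 CPM in WT. Krt20 of the urothelial list was at 490.5 CPM in KO and 213 CPM in WT. Striated muscle genes summed to 143 CPM in KO and 251 CPM in WT, with Ckm alone at 75.6 and 88.5 CPM. All 12 striated muscle genes compared were lower in the KO library, with a median log2 ratio of -1.62. Red blood cell genes summed to 666 CPM in KO, led by Hba-a1 (482 CPM) and Hbb-bt (173 CPM), and to 1403 CPM in WT, led by Hbb-bs (763 CPM) and Hba-a2 (527 CPM). These globin genes are near-identical pairs whose counts changed places between libraries, so only their sum is compared. The 7 brown fat genes summed to 557 CPM in KO and 276 CPM in WT, nearly all of it Fabp4 (549 against 274 CPM), with Adipoq at 5.72 against 0.35 CPM and Ucp1 at or under 0.194 CPM in both. The part of these in the ureter ratios was not tested.

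**Figure D5:**
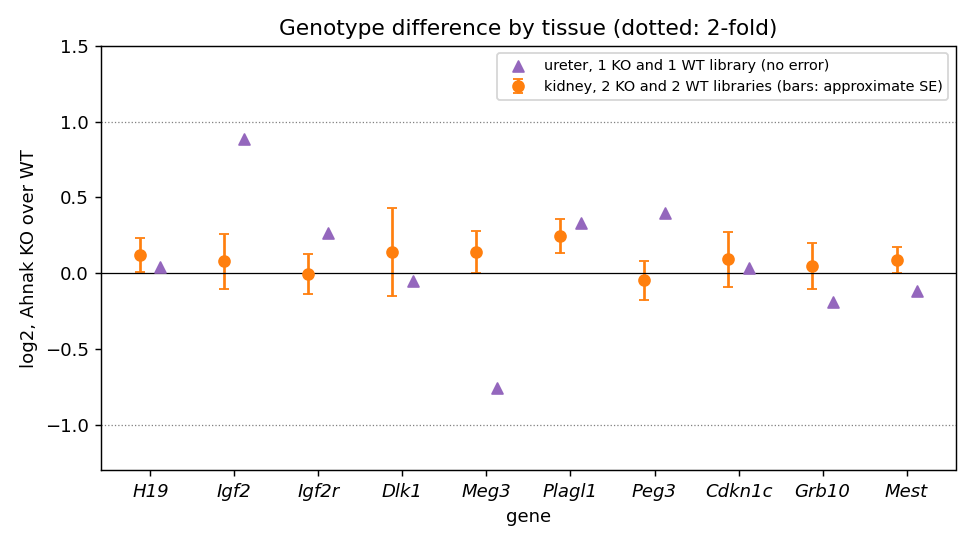
Log2 of Ahnak KO over WT for each gene in the kidney (orange circles, bars are the approximate SE, 2 libraries a genotype) and in the ureter (purple triangles, 1 library a genotype, no error); dotted lines mark 2-fold. Kidney values run from -0.05 to 0.25, and in the ureter Igf2 lies at 0.89 and Meg3 at -0.76.

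Among related genes in the ureter, 1 of 50 other imprinted genes was over 2-fold higher, Calcr (23 counts in KO against 0 in WT), and 2 were over 2-fold lower, Kcnq1 (0 counts against 78) and Ppp1r9a (log2 ratio -1.0). Where the higher of the 2 libraries had 100 counts or more, the extremes with an active maternal copy were Dcn (0.64), Slc22a18 (0.50) and Atp10a (0.46), and Ppp1r9a, Rian (-0.41) and Klf14 (-0.41). With an active paternal copy they were Kcnq1ot1 (0.78), Peg10 (0.51) and Mcts2 (0.44), and Magel2 (-0.70), Dio3 (-0.65) and Snrpn (-0.55). Rian and Dio3, from the Dlk1 and Meg3 cluster, were thus lower in the KO library like Meg3, while Rtl1 was at -0.08 and Mirg at 0.10. In the IGF axis 3 of 19 genes were over 2-fold higher and 2 over 2-fold lower: Stc2 (53 counts against 17), Igfbp6 (1.34), Pappa (1.18) and Irs1 (0.46) led the higher values, and Stc1 (-1.74), Igfbp1 (-1.02) and Igfbp5 (-0.72) the lower ones. Of 16 imprint maintenance genes 1 was over 2-fold lower, Zfp57 (-1.08), followed by Arid4a (-0.70) and Dnmt3l (-0.57), and the highest were Tet3 (0.37), Dnmt3b (0.08) and Trim28 (-0.01).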

How the data were processed

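Poly(A) RNA-seq was read from 6 pooled libraries. The authors deposited 1 table with estimated counts as whole numbers, FPKM and TPM for each library. The sources differ on how it was made: the submitters' processing notes name Trimmomatic 0.38, HISAT2 2.1.0 and StringTie 1.3.4b on build mm10, whereas the methods name Cutadapt, STAR and Cufflinks on GRCm39. The kit was stranded, and the strand setting of the counting is not given in the sources used here. Coordinates are from RefSeq GRCm38.p6, which matched 24462 of 24532 gene numbers.

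Counts were tested with edgeR 4.0.16 in R 4.3.3 (TMM, filter on low counts, quasi-likelihood F-test, Benjamini-Hochberg over all genes tested). Ureter was compared with kidney on 6 libraries with genotype as a term (3 residual degrees of freedom), and KO with WT on the 4 kidney libraries (2 residual degrees of freedom). In the deposited names the KO ureter shares its number code with KO kidney 2, and the WT ureter with WT kidney 2. Whether they came from the same mice is not given. The tissue fit treated the 6 libraries as independent, and a pairing of ureter with kidney was not tested. SEs are approximate, taken as the size of the log2 fold change over the root of its F statistic. For the ureter genotypes, CPM + 0.5 of KO was divided by that of WT and put on the log2 scale, where the higher library had 10 counts or more. CPM in the text are TMM-scaled over 6 libraries. The 10 genes had 514 to 281362 counts, so counting error is small beside the spread between libraries. Alternatives were DESeq2 1.42.0, limma 3.58.1 on log2(FPKM + 1) and log2(FPKM + 0.1), other filters, leaving out each library, and a replicate block. The edgeR fits were also run on simulated counts, drawn with less spread between libraries than in the data. That run does not show how the fits perform at the spread of these libraries.

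The genes and lists were chosen with earlier results of these data known. Named beside the 10 genes are, in each list, the 3 largest and 3 smallest values at a mean of at least 1 CPM (in the ureter, 100 counts or more in the higher one), the 2 most abundant genes of the marker lists, Ahnak, and the 3 genes of nearest profile at a mean of at least 10 CPM, of which 1 is not reported here. Named outside this rule, after their values were seen, are Gvin1, Rnf8-cmtr1, Rn45s, Xist, marker genes that departed from their list, overlapping or neighbouring genes, in the ureter Calcr, Kcnq1 and Stc2, and Rtl1, Rian, Mirg and Dio3 as members of the Dlk1 cluster.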

Additional observations from a re-analysis of the deposited data

Results flagged for a closer look

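The 2 tissues differed in direction for Mest. Both KO kidneys lay above both WT kidneys, while the KO ureter lay below the WT ureter with a log2 ratio of -0.12. The difference between tissues was not tested, since the ureter has 1 library a genotype. Groups of 1 or 2 libraries are too small to look for a library far from the others of its group.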

How the results depend on the processing

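In the comparison of tissues, 143 of 150 alternative values of the 10 genes kept their direction and their side of the threshold. The number of the 10 called was 7 to 9, the calls of Dlk1, Meg3, H19, Igf2, Igf2r, Plagl1 and Mest held in every alternative, and only Cdkn1c, not called, turned its direction, to 0.042 without WT kidney 2. Genes called over all were 7595, and 5158 to 6877 with 1 library left out.

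In the kidney, 113 of 130 alternative values kept direction and side, and none of the 10 genes was called under any alternative. Genes called over all were 2, and they became 46 with DESeq2, 1 with at least 10 counts in every library, 0 with limma on either FPKM scale, 0 with all 6 libraries in 1 fit, and 3 to 87 with 1 library left out: 46 without KO kidney 1, 87 without KO kidney 2 and 10 without WT kidney 1. With fewer libraries the residual degrees of freedom fall. Same-numbered kidney libraries tended to deviate in opposite directions (correlation over genes -0.193), so the numbers were not taken as a pairing. The value rests on the difference between the replicates of each genotype, and KO kidney 1 also differed in sex. It cannot decide whether the libraries were paired. With the replicate block 0 genes were called and 0 of the 10. The crossed pairing, added after seeing the data, called 1 gene and 0 of the 10. Small values turned direction. With all 6 libraries in 1 fit, Igf2r went to 0.082, Meg3 to -0.16, Peg3 to 0.099 and Grb10 to -0.033. With 1 library left out, the values of genes that turned ran from -0.14 to 0.36 for Cdkn1c, -0.31 to 0.48 for Dlk1, -0.13 to 0.20 for Grb10, -0.0042 to 0.25 for H19, -0.16 to 0.36 for Igf2, -0.15 to 0.12 for Igf2r, -0.031 to 0.29 for Meg3 and -0.17 to 0.084 for Peg3. The cause was not tested.

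In the ureter, H19 and Cdkn1c turned to -0.16 with library size alone and to -0.17 on log2(FPKM + 1), and to -0.17 and -0.18 on log2(FPKM + 0.1), where no composition scaling is applied. Genes past 2-fold, 1651, became 2771 with a pseudocount of 0.1, 803 on log2(FPKM + 1) and 2654 on log2(FPKM + 0.1). On both FPKM scales 1 of the 10, Meg3, was past 2-fold (-1.06 and -1.07), and otherwise 0. Each genotype has a single library here, so these values have no replicate error.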
